A study of Homo sapiens with 12 samples.

Results

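The 9 genes described here encode the proteins that receive the insulin and insulin-like growth factor (IGF) signal at the cell surface and pass it on. They are the receptors INSR, IGF1R and IGF2R, the adaptors IRS1, IRS2, GRB10, GRB14 and SHC1, and the phosphatase PTPN1. They were chosen by role, as the rows whose Ensembl identifier carries one of these symbols, and are 9 of the 60617 gene identifiers in the deposited count files. All 9 were among the 22756 genes that averaged at least 1 count per library and were tested, although GRB14 had only 1 to 8 counts in any library.

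The RNA came from 12Z, an endometriosis-derived epithelial line made immortal in culture, with 3 libraries sequenced in each of 4 groups. All 12 cultures received non-targeting siRNA and, a day later, a pBabe plasmid, so that siRNA and transfection are shared by every group. Control cells carried the empty vector and H1047R cells carried pBabe-PIK3CA*H1047R, which encodes an activated catalytic subunit of phosphoinositide 3-kinase (PI3K). After 4 h without serum, each kind of cell was given vehicle or 100 nM insulin for 24 h, and the 4 groups are named by vector and treatment (control vehicle and control insulin, then the same for H1047R). The plasmids were introduced transiently into 1 cell line, and the share of cells that took them up is not given in the sources used here. In bulk RNA of this kind, fewer cells expressing a gene and less RNA per cell cannot be told apart.

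Insulin binds INSR and the IGFs bind IGF1R, a pair of related receptor tyrosine kinases that phosphorylate the docking proteins IRS1 and IRS2, which in turn recruit PI3K and lead to AKT. SHC1 links the same receptors to RAS and the MAP kinases, GRB10 and GRB14 bind the activated receptors and restrain them, and PTPN1 (PTP1B) removes phosphate from them. IGF2R has no kinase and carries IGF2 and lysosomal enzymes to the lysosome. In many tissues active AKT keeps FOXO transcription factors out of the nucleus, and INSR and IRS2 are well-known FOXO targets.

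Gene counts per library ranged from 21483124 to 37918025, with the 3 H1047R insulin libraries at 30071951 or above. PIK3CA held 80.9 to 89.0 CPM (gene counts scaled to library size with TMM factors) in the 6 control libraries, 180 to 312 in H1047R vehicle and 714 to 734 in H1047R insulin, and counts do not separate plasmid from chromosomal transcripts. H1047R vehicle replicate 1 stood apart, with the 312 CPM of PIK3CA and a chi-square per degree of freedom of 5.28 and 5.90 against its replicates, where the other pairs of replicates gave 2.70 to 4.88. In the H1047R insulin libraries multiply placed reads made up 8.48 to 9.51% of reads against 13.6 to 15.4% elsewhere. A list of 10 stromal markers, all of which averaged at least 1 CPM, summed to 6030 to 6260 CPM there and to 8220 to 8840 CPM in the other groups. The mean was lowest in H1047R insulin for 9 of the 10, while VIM was highest there (2290 against 1760 to 2040 CPM). Of 9 epithelial markers 8 averaged at least 1 CPM (KRT8 1430 CPM and CDH1 1.74 CPM), while EPCAM averaged 0.599 CPM, and the epithelial list summed to 3290 to 3310 CPM in H1047R insulin and 2920 to 3260 CPM elsewhere. Comparisons that involve H1047R insulin are therefore also comparisons of libraries that differ in PIK3CA level and in these other measures. The part these play in the results below was not tested.

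The members differed widely in abundance. Per kilobase of merged exons, the only scale here on which genes are compared with each other, PTPN1 averaged 39.9 CPM per kb over the 12 libraries and SHC1 39.0, which placed both above 95% of the tested genes with a length. IGF2R followed at 16.2 CPM per kb, then GRB10 at 6.28, IGF1R at 6.15, IRS1 at 4.38, INSR at 2.63, IRS2 at 2.41 and GRB14 at 0.0422. PTPN1 and SHC1 overlapped in their ranges over libraries, as did IGF1R with IRS1, INSR with IRS2, and GRB10 with IGF1R, IRS1 and INSR. The order within these pairs is not beyond the spread. With merged exons as the length, the place of GRB10 came from 1 group, H1047R insulin, where it averaged 14.1 CPM per kb. In control vehicle, control insulin and H1047R vehicle GRB10 averaged 3.31, 3.55 and 4.17, below IGF1R in all 3 (7.35, 5.28 and 7.05 CPM per kb). It was also below IRS1 in control vehicle and H1047R vehicle (4.25 and 4.39 CPM per kb), but above it in control insulin (3.36). With the longest transcript as the length, SHC1 (48.6 CPM per kb) passed PTPN1 (40.5 CPM per kb). The rest kept their places in the mean over the 12 libraries, but not within each group. GRB10 then averaged 5.94, 6.36 and 7.47 CPM per kb in control vehicle, control insulin and H1047R vehicle. That was above IRS1 in all 3 (4.35, 3.44 and 4.51). It was above IGF1R in control insulin (6.02) and below it in control vehicle and H1047R vehicle (8.38 and 8.03). The order of GRB10 against IRS1 and IGF1R therefore depends on the length used. The cells held message for both receptor kinases and for both IRS proteins, and almost none for GRB14. Transcripts of INS and IGF1 were at 0 counts in every library, and IGF2 did not exceed 0.103 CPM in any.

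**Figure D1:**
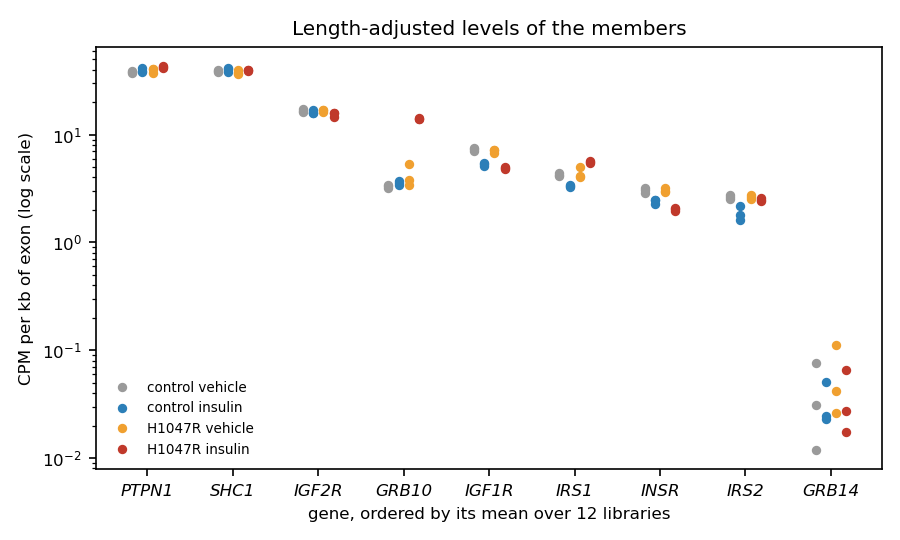
Level of each of the 9 genes in CPM per kb of merged exons (log axis) for the 12 libraries (points, colored by group). PTPN1 and SHC1 lie between 36.8 and 43.1 CPM per kb, GRB14 at or below 0.111, and the points of GRB10 spread from 3.21 to 14.3.

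The 4 genes that fell with insulin in control cells are introduced by the 250 bases before their RefSeq start (GRCh38.p14), shown because these genes moved together. INSR lies on the minus strand of chromosome 19 (7112255 to 7294414 in hg38), with its window at chr19:7294415-7294664. IGF1R lies on the plus strand of chromosome 15 (98648539 to 98964530), with its window at chr15:98648289-98648538. IRS1 is on the minus strand of chromosome 2 (226731312 to 226799820, window chr2:226799821-226800070) and IRS2 on the minus strand of chromosome 13 (109752695 to 109786583, window chr13:109786584-109786833). Each is written 5′ to 3′ on the strand of its gene, and capitals mark GGGCGG, the GC box bound by SP1-like factors, and TGTTT, a short core found in FOXO motifs, or their reverse complements.
INSR: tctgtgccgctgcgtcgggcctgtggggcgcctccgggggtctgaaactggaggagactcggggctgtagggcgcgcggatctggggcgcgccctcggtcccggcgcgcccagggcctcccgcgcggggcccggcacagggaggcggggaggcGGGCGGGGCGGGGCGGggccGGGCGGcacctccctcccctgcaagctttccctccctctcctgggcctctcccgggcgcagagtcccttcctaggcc
IGF1R: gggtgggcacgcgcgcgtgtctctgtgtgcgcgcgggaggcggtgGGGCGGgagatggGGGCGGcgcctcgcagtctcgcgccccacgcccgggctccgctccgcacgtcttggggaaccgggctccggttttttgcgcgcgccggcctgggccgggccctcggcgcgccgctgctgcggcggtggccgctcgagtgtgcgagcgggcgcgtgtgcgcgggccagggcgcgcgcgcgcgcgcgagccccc
IRS1: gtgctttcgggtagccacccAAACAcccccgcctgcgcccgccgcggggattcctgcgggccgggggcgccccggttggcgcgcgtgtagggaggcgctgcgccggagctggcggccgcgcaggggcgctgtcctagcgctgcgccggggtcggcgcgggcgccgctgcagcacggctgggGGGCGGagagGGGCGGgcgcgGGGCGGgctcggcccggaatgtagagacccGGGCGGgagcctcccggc
IRS2: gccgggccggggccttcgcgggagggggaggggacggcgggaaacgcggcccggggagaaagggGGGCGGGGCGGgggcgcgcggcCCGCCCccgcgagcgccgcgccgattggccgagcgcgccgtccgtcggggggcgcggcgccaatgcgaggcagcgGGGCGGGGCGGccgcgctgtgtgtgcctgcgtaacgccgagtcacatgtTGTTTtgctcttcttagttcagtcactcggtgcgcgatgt
All 4 windows were rich in G and C, with 78.4% for INSR, 81.2% for IGF1R, 80.8% for IRS1 and 76.4% for IRS2 against a median of 58.0% over 35116 promoter windows of the same length. Matches to GGGCGG numbered 4 in INSR, 2 in IGF1R, 4 in IRS1 and 5 in IRS2, overlapping matches counted separately, and 42.6% of all windows held at least 1. A single TGTTT was found in IRS1, on the opposite strand, and in IRS2, as in 40.4% of all windows. The longer FOXO motif GTAAACA, present in 2.98% of all windows, was in none of the 4. High G and C content and GC boxes were also found in members that did not fall. IGF2R had 79.2% and 6 matches to GGGCGG, and the richest windows of GRB10 and GRB14 had 81.6% and 82.0%. The windows of SHC1 and PTPN1 had 55.2% to 69.2%, and other windows of GRB10 and GRB14 went down to 30.4% and 40.8%. All these values describe the letters of the windows only.

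To determine how insulin alone acted on these genes, control insulin was compared with control vehicle. Messages for both receptor tyrosine kinases and both IRS proteins were lower after 24 h of insulin, by 20.9% to 29.5%, while IGF2R, SHC1, PTPN1 and GRB10 did not pass the test. In all 4 of the 9 members fell and 0 rose at a false discovery rate (FDR) below 0.001 in edgeR's quasi-likelihood test, and among all tested genes 1.15% fell, 0.483% rose and 1.63% changed. The median log2 fold change of the 9 was -0.28, which is the value of the scarce GRB14, against 0.00 for all tested genes. Adjusted p-values here are Benjamini-Hochberg values over all tested genes, and ± on a log2 fold change is its standard error.

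INSR, the insulin receptor, stood at 33.1, 31.2 and 34.9 CPM in the 3 control vehicle libraries and at 26.9, 24.5 and 26.9 CPM in control insulin. Every insulin library was below every vehicle library (log2 fold change -0.34 ± 0.0609, adjusted p = 0.000194 in edgeR). The INSR call was lost on leaving out replicate 1 or 3 of control vehicle (adjusted p = 0.00153 and 0.00354 in edgeR) or replicate 2 of control insulin (adjusted p = 0.00717 in edgeR). IGF1R, the receptor of IGF1 and IGF2 that also binds insulin at high dose, fell from 103, 98.9 and 106 CPM to 74.4, 75.9 and 70.6 CPM. The groups were well apart, and this was the member change with the smallest adjusted p in control cells (log2 fold change -0.48 ± 0.0452, adjusted p = 4.35e-10 in edgeR).

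IRS1, a docking protein of both receptors, held 43.7, 42.7 and 41.2 CPM with vehicle and 33.0, 34.3 and 33.5 CPM with insulin. The groups did not overlap and each spanned under 3 CPM (log2 fold change -0.34 ± 0.0609, adjusted p = 0.000177 in edgeR). The IRS1 call was lost on leaving out control vehicle replicate 1 or 2 or any 1 control insulin library, with adjusted p-values of 0.00116 to 0.00249. IRS2, its close relative, fell from 20.8, 21.5 and 22.5 CPM to 17.7, 14.8 and 13.2 CPM. The 3 insulin libraries of IRS2 were spread more widely than the vehicle libraries but lay wholly below them (log2 fold change -0.50 ± 0.0769, adjusted p = 1.2e-05 in edgeR). Without control vehicle replicate 1, or without control insulin replicate 2, the count of members that fell was 2 in place of 4, with IGF1R and IRS2 left.

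The remaining members did not pass the test with insulin in control cells. GRB10 was at 32.6, 31.4 and 33.3 CPM with vehicle and 34.5, 36.2 and 33.7 CPM with insulin (log2 fold change 0.10 ± 0.0821, adjusted p = 0.615 in edgeR). Its insulin libraries lay just above its vehicle libraries, but the difference did not pass the test. IGF2R, SHC1 and PTPN1 had log2 fold changes of -0.04, 0.04 and 0.05, all with overlapping groups.

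**Figure D2:**
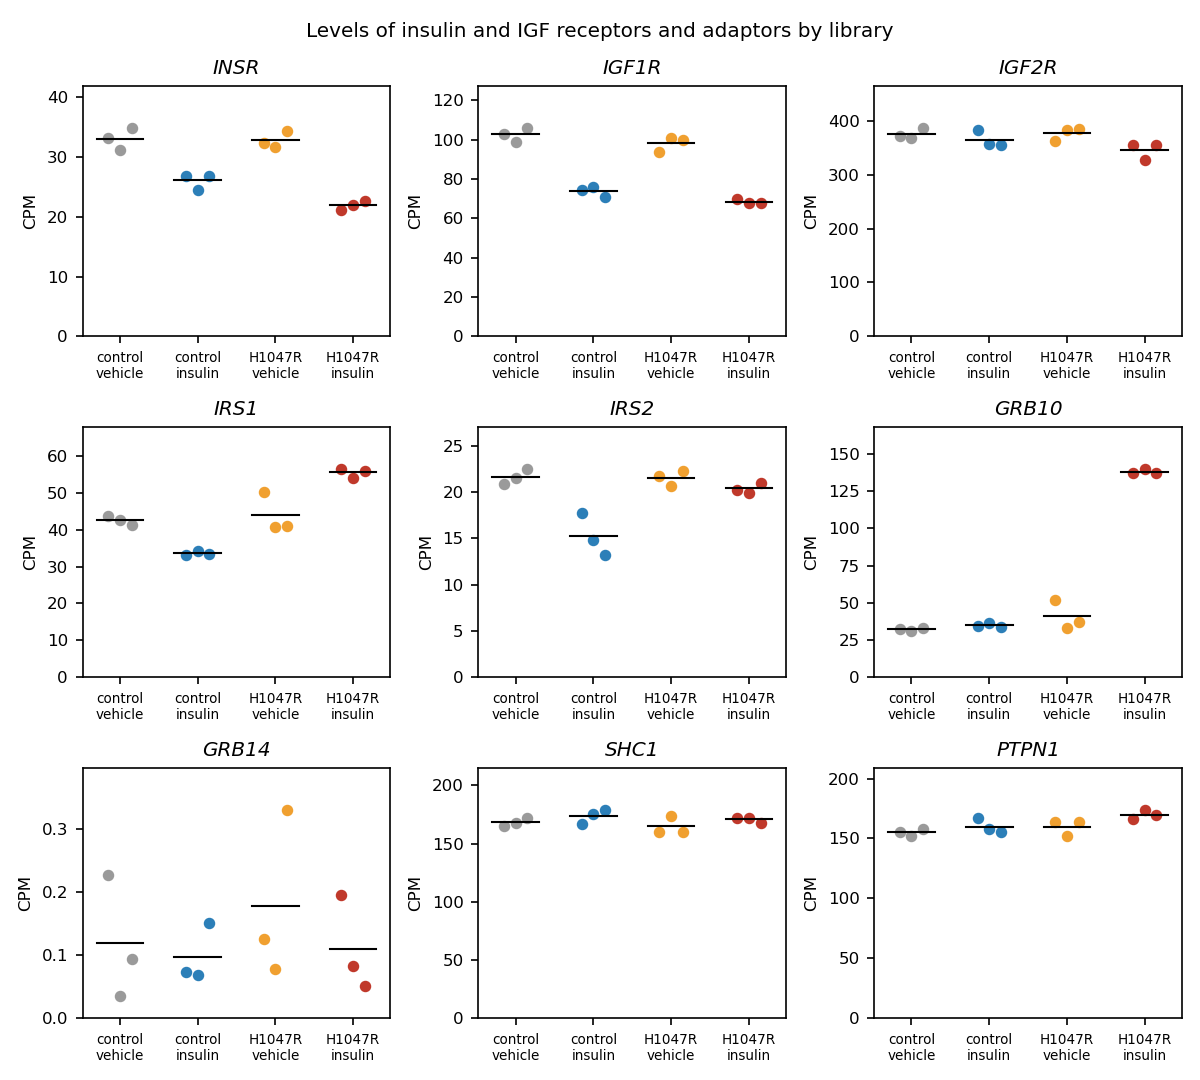
Level of each of the 9 genes in CPM for the 12 libraries (points), by group, with the mean of each group (line), colored by group and with each panel on its own axis. INSR and IGF1R are low in both insulin groups, IRS1 and IRS2 are low in control insulin, and GRB10 is at 137 to 140 CPM in H1047R insulin and at 51.9 CPM or below elsewhere.

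In cells that expressed PIK3CA H1047R, both receptor kinases were lower with insulin and a pair of adaptors was higher. PIK3CA also averaged 235 CPM in H1047R vehicle and 721 CPM in H1047R insulin. Insulin and PIK3CA level therefore cannot be told apart in this comparison. Against H1047R vehicle, H1047R insulin held less INSR and IGF1R message, more IRS1 and 3.38 times as much GRB10. In total 2 of the 9 members rose and 2 fell, where 9.85% of all tested genes rose, 9.8% fell and 19.6% changed. The members' median log2 fold change was -0.08, against -0.00 for all tested genes.

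INSR was at 32.4, 31.7 and 34.3 CPM in H1047R vehicle and at 21.1, 22.0 and 22.7 CPM in H1047R insulin. The insulin libraries of INSR were the lowest 3 of the 12 (log2 fold change -0.58 ± 0.0607, adjusted p = 2.71e-10 in edgeR). IGF1R went from 93.8, 101 and 100 CPM to 69.9, 67.5 and 67.9 CPM, again with no overlap (log2 fold change -0.52 ± 0.0449, adjusted p = 1.42e-12 in edgeR). IGF2R held 363, 382 and 384 CPM with vehicle and 355, 328 and 355 CPM with insulin. All 3 insulin libraries of IGF2R were below the vehicle libraries, but the difference did not reach the threshold (log2 fold change -0.12 ± 0.0398, adjusted p = 0.0149 in edgeR).

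IRS1 rose in H1047R cells, from 50.3, 40.7 and 41.1 CPM to 56.5, 54.1 and 55.9 CPM (log2 fold change 0.34 ± 0.0573, adjusted p = 7.55e-06 in edgeR). The highest vehicle value of IRS1 was that of replicate 1, the library that stood apart, and without it the log2 fold change was 0.47. IRS2 was at 21.7, 20.6 and 22.3 CPM with vehicle and at 20.2, 19.9 and 21.0 CPM with insulin. These groups overlapped, and the 95% interval of the IRS2 log2 fold change ran from -0.23 to 0.07 (adjusted p = 0.442 in edgeR).

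GRB10, an adaptor that restrains both receptor kinases, was at 51.9, 33.4 and 37.2 CPM in H1047R vehicle and at 137, 140 and 137 CPM in H1047R insulin. The 3 insulin libraries of GRB10 lay close together and far above all others (log2 fold change 1.76 ± 0.0733, adjusted p = 6.31e-22 in edgeR). Without H1047R vehicle replicate 1, the highest of the vehicle libraries, its log2 fold change was 1.99. PIK3CA itself moved the same way in these libraries, and the relation of the 2 genes was not tested. GRB10 (chromosome 7, 50590063 to 50793462, minus strand) is an imprinted gene with several starts, and gene counts do not tell these apart.

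SHC1, which links the receptors to RAS, and PTPN1, which dephosphorylates them, barely moved. SHC1 stayed between 160 and 179 CPM over all 12 libraries and PTPN1 between 152 and 174 CPM. In H1047R cells the insulin log2 fold change of SHC1 was 0.05 (adjusted p = 0.406 in edgeR) and that of PTPN1 was 0.09 (adjusted p = 0.0902 in edgeR). Same-strand exons of PYGO2 overlap SHC1 in the annotation used here, and those of CHP1P2 overlap IGF2R, so reads there may have been left out as ambiguous. GRB14, the relative of GRB10, stayed at 0.0357 to 0.331 CPM, where 1 to 8 counts per library cannot show a difference.

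To determine what the vector did without insulin, H1047R vehicle was compared with control vehicle. No member passed the test, with 0 of 9 at an FDR below 0.001 in edgeR. Of all tested genes 0.158% changed, 0.141% upward and 0.0176% downward. DESeq2 called 0 of the 9 and 18 of all tested genes. At an unadjusted p under 0.05 in edgeR there was 1 member, a count without an all-gene share here. That 1 member, the only one also at an FDR below 0.05 (1.21% of all tested genes), was GRB10, at 32.6, 31.4 and 33.3 CPM in control vehicle and 51.9, 33.4 and 37.2 CPM in H1047R vehicle (log2 fold change 0.33 ± 0.0818, adjusted p = 0.0297 in edgeR). All 3 H1047R libraries of GRB10 were above the control libraries. Its log2 fold change was 0.12 without H1047R vehicle replicate 1 (adjusted p = 0.58 in edgeR), and 0.46 without replicate 2, when it was called (adjusted p = 0.000164 in edgeR). Apart from GRB14, the other members had log2 fold changes between -0.06 and 0.05.

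With insulin present, IRS1, IRS2 and GRB10 were higher in H1047R cells than in control cells. In H1047R insulin against control insulin 3 of the 9 members were higher and 0 lower, where 11.4% of all tested genes were higher, 12% lower and 23.5% changed. The 3 were IRS1 (log2 fold change 0.72 ± 0.0582), IRS2 (0.42 ± 0.0746) and GRB10 (1.99 ± 0.0737, or 3.96-fold), with adjusted p-values of 1.72e-13, 1.11e-05 and 4.87e-24 in edgeR. Each of these 3 adaptors had every H1047R insulin library above every control insulin library. The adaptors SHC1 and GRB14 did not pass the test (adjusted p = 0.697 and 0.931 in edgeR). INSR was lower in every H1047R insulin library (log2 fold change -0.25 ± 0.0614), but its adjusted p of 0.00102 in edgeR was just outside the threshold. It passed without replicate 3 of control vehicle, replicate 2 of control insulin or replicate 3 of H1047R vehicle (adjusted p = 0.000869, 0.000633 and 0.000827 in edgeR). IGF1R differed by -0.11 on the log2 scale (adjusted p = 0.0603 in edgeR).

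**Figure D3:**
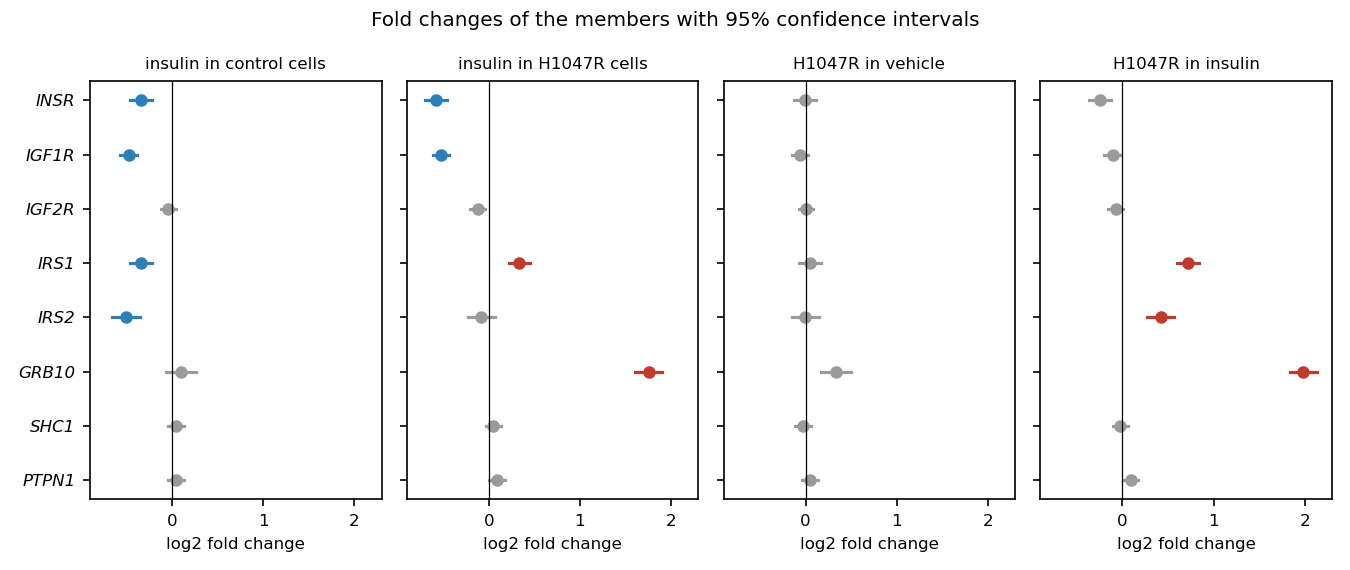
Log2 fold changes of 8 members with 95% intervals in the 4 comparisons between groups (red higher, blue lower, gray not called). GRB14, with 1 to 8 counts per library, is left out. GRB10 stands at 1.76 and 1.99 in the comparisons that involve H1047R insulin and at 0.10 and 0.33 in the others.

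Whether insulin acted differently in the 2 kinds of cells was tested as the difference of the insulin effects, H1047R minus control. PIK3CA rose with insulin in H1047R cells (log2 fold change 1.62) and did not pass the test in control cells (-0.10). Its level therefore cannot be told apart from insulin in this difference either. This difference was positive and past the threshold for 2 of the 9 members, IRS1 and GRB10, and negative for 0, where 4.58% of all tested genes passed in the positive and 4.49% in the negative direction, 9.07% in all. At an FDR below 0.05 it passed for 4 members, with IRS2 and INSR added, and for 21.3% of all tested genes. For IRS1, which fell in control cells and rose in H1047R cells, it was 0.67 ± 0.0836 on the log2 scale (adjusted p = 4.21e-08 in edgeR). For GRB10 it was 1.66 ± 0.110 (adjusted p = 4.19e-15 in edgeR). IRS2 fell in control cells and did not pass the test in H1047R cells, but its difference of 0.42 ± 0.106 did not pass the threshold either (adjusted p = 0.00241 in edgeR). Without H1047R vehicle replicate 1 the IRS2 difference was 0.46 and passed (adjusted p = 0.000528 in edgeR). It also passed without control insulin replicate 1, at 0.54 (adjusted p = 8.88e-05 in edgeR).

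The receptors gave smaller differences between the cells. For INSR the insulin effect was more negative in H1047R cells by 0.24 ± 0.0860 on the log2 scale, which did not pass (adjusted p = 0.0409 in edgeR). For IGF1R the difference was -0.05, with a 95% interval of -0.18 to 0.08 (adjusted p = 0.688 in edgeR). For IGF2R it was -0.08 (adjusted p = 0.371 in edgeR).

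**Figure D4:**
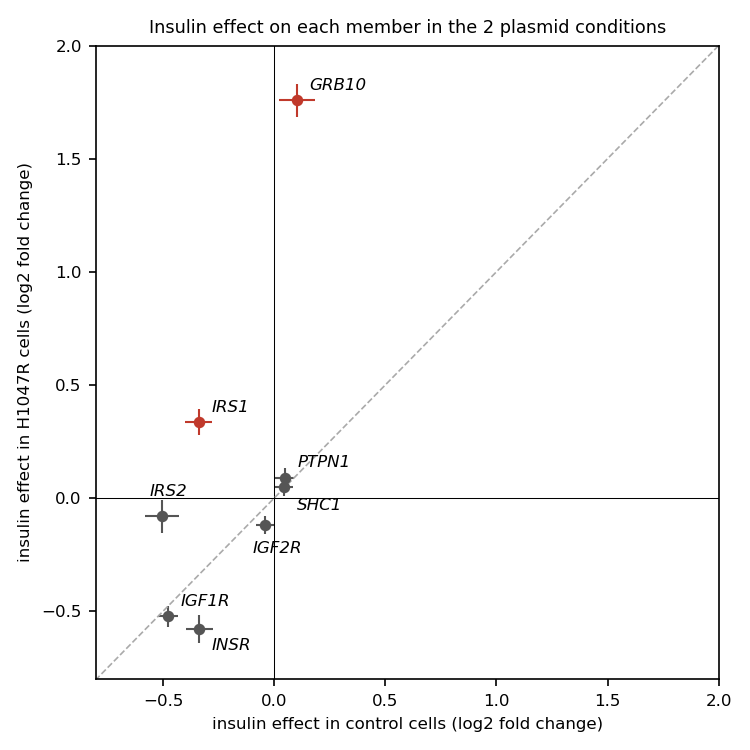
Insulin log2 fold change of 8 members in control cells (x axis) and in H1047R cells (y axis), with standard errors, a dashed line where both are equal, and red where the difference passed the test. GRB14 is left out. INSR, IGF1R, IGF2R and IRS2 (-0.50 and -0.08) lie in the lower left, IRS1 lies at -0.34 and 0.34, and GRB10 lies at 0.10 and 1.76.

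Ratios within a library show the same values as a balance of receptor to adaptor message, per kb. The ratio of IGF1R to INSR was 2.41 ± 0.0537 in control vehicle, 2.20 ± 0.192 in control insulin, 2.33 ± 0.122 in H1047R vehicle and 2.43 ± 0.131 in H1047R insulin (SD, n = 3), with overlapping ranges. The ratio of IRS1 to IGF1R was 0.578 ± 0.0313, 0.636 ± 0.0227, 0.626 ± 0.105 and 1.13 ± 0.0155 in the same order, and its 3 H1047R insulin libraries (1.13, 1.11 and 1.14) lay above all others. The ratio of IRS2 to IRS1 was 0.625 ± 0.0443, 0.556 ± 0.0898, 0.607 ± 0.0701 and 0.451 ± 0.0120. The ratio of IGF2R to IGF1R was 2.26 ± 0.0315 and 2.36 ± 0.0245 with vehicle in control and H1047R cells, and 3.05 ± 0.147 and 3.12 ± 0.117 with insulin, with every insulin library above every vehicle library.

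The other genes of proximal insulin and IGF signaling were followed in 5 lists of 74 genes, of which 68 were tested. Insulin changed 3 of them in control cells, 1 higher and 2 lower, where 0.483% of all tested genes rose, 1.15% fell and 1.63% changed. GAB2, a docking protein related in function to the IRS proteins, fell from 17.4 ± 1.47 to 11.8 ± 0.360 CPM (SD, n = 3) and PTPRE, a receptor-type tyrosine phosphatase, from 10.3 ± 0.788 to 7.45 ± 0.915 CPM (log2 fold changes -0.56 and -0.47, adjusted p = 3.66e-06 and 0.000969 in edgeR). MDM2, a ubiquitin ligase, rose by 0.26 on the log2 scale (adjusted p = 0.000689 in edgeR). The PTPRE change was not called by DESeq2.

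In H1047R cells insulin changed 19 of the 68, 14 higher and 5 lower, where 9.85% of all tested genes rose, 9.8% fell and 19.6% changed. The counts within the lists, here and below, are of few genes and stand against the same shares. Of 7 tested genes for ligands, receptor processing and ligand clearance, 3 rose and 0 fell. They were CEACAM1, a membrane protein that promotes insulin clearance (0.812 ± 0.503 to 5.20 ± 0.574 CPM, log2 fold change 2.69), IDE, the insulin-degrading enzyme (76.6 ± 1.39 to 93.5 ± 2.09 CPM, 0.29), and FURIN, a protease that cleaves the receptor precursors (84.9 ± 6.07 to 97.2 ± 0.834 CPM, 0.20). Of 22 other adaptors and scaffolds 3 rose, among them SHC4, a relative of SHC1 (5.69 ± 0.925 to 10.2 ± 0.714 CPM, log2 fold change 0.85), and SH2B3, an adaptor that restrains receptor signaling (64.7 ± 6.64 to 111 ± 2.83 CPM, 0.78). The 2 that fell were GAB2 (log2 fold change -0.70) and RACK1 (-0.23).

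Genes that restrain the pathway moved in both directions. Of 11 other phosphatases and receptor inhibitors 2 rose and 2 fell with insulin in H1047R cells. TRIB3, a pseudokinase that binds AKT, rose from 43.4 ± 4.21 to 83.0 ± 2.37 CPM (log2 fold change 0.94) and PHLDA3, which competes with AKT for membrane lipid, rose by 0.59 on the log2 scale. ENPP1, which can inhibit the insulin receptor, fell from 16.2 ± 1.84 to 10.9 ± 0.324 CPM (log2 fold change -0.58) and PTPRJ, a receptor-type phosphatase, from 71.2 ± 2.03 to 55.8 ± 1.55 CPM (-0.35). Of 15 SOCS proteins and ubiquitin ligases 5 rose, led by SOCS2 (0.76) and MDM2 (0.61), and 1 fell, CUL7 (-0.38), a scaffold of a ligase for IRS1. Of 13 kinases 1 rose, IKBKB (0.23), and 0 fell.

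In vehicle H1047R changed 0 of the 68 genes at an FDR below 0.001 in edgeR, where 0.158% of all tested genes changed. At an unadjusted p under 0.05 there were 8, a count without an all-gene share here. DESeq2 called 18 of all tested genes and 0 of the 68. In insulin 12 were higher in H1047R cells and 9 lower, where 11.4% of all tested genes were higher, 12% lower and 23.5% changed. Among the lower was GSK3B (log2 fold change -0.19), a kinase downstream of the IRS proteins. The difference of the insulin effects passed for 9 of the 68, positive for 6 (FURIN, SHC4, SH2B3, TRIB3, MDM2 and NEDD4L) and negative for 3 (ENPP1, PTPRJ and CUL7), with values of 0.33 to 0.91 and of -0.73 to -0.35, where 4.58% of all tested genes passed in the positive and 4.49% in the negative direction, 9.07% in all. The PIK3CA level, multimapping share and stromal marker sum of H1047R insulin given above moved with the counts that involve that group. Their part in these counts was not tested.

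**Figure D5:**
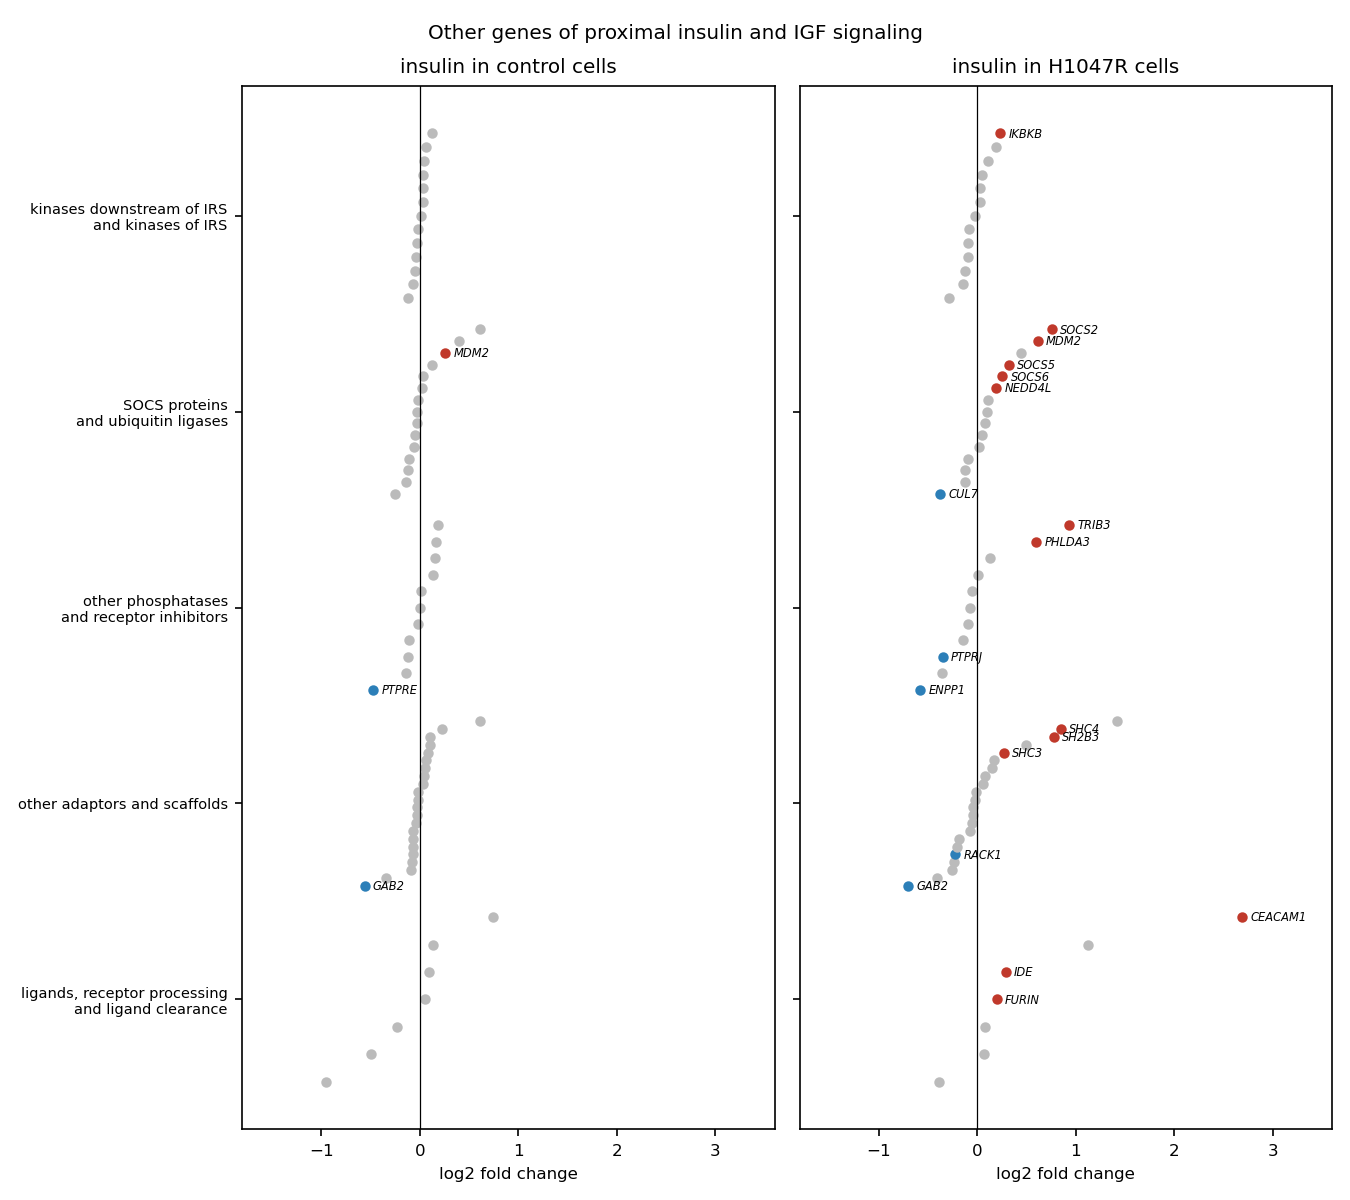
Insulin log2 fold change in control and H1047R cells for the 68 tested genes of the 5 lists (points, red higher, blue lower, gray not called), with called genes named. In control cells 3 genes are called, and in H1047R cells 19, from GAB2 at -0.70 to CEACAM1 at 2.69.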

How the data were processed

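Each of the 12 cultures gave 1 library from 500 ng of RNA, by a strand-specific mRNA kit, and the study describes the 3 per group as independent experiments. Per the labels and the methods, the authors used cutadapt, Trim Galore and STAR (genome hg38) and deposited STAR's raw gene counts, not normalized. Versions of these tools were not given in the sources read. The methods name GENCODE vM16, a mouse release, while the files hold human identifiers, which leaves the human release open, and gene lengths may differ from those used here. A read placed at several sites is not counted, which lowers genes with close copies.

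Reverse-strand counts entered the tests, without unmapped, multiply placed, unassigned or ambiguous reads (3.12 to 4.09%, 8.48 to 15.4%, 3.91 to 4.55% and 3.31 to 3.61% of reads). The fit was edgeR 4.0.16 (glmQLFit, glmQLFTest, TMM, R 4.3.3) over genes with a mean of 1 count or more, in 1 model of 12 libraries with 8 residual degrees of freedom and 5 contrasts, and calls were made at a Benjamini-Hochberg FDR below 0.001. SE values are the size of the log2 fold change over the root of F. The code was tested on simulated data. Alternatives were DESeq2 1.42.0, other scalings and filters, unstranded counts, a replicate block, 2-group fits, an FDR of 0.05, the longest transcript as length, and leaving out each library.

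Lengths are merged exons of GENCODE v44 on hg38. Promoter windows are from RefSeq (GRCh38.p14), in which all 9 members matched. Named genes were all members, PIK3CA, up to 3 called genes per list and comparison with the largest change at 1 CPM or more, and for INSR, IGF1R, IRS1 and IRS2 the 2 genes most correlated with each. RACK1, IGF2, INS, IGF1 and the markers KRT8, CDH1, EPCAM and VIM fall outside this rule and were named after their values were seen. The members and lists were chosen with earlier results of these data known.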

Additional observations from a re-analysis of the deposited data

Results flagged for a closer look

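The insulin effects on IRS1 and on GRB10 differed between control and H1047R cells by the test of the difference itself, by 0.675 and 1.656 on the log2 scale. With insulin, IRS1 was below every vehicle library of the same cells in 3 of 3 control libraries. IRS1 was above every one of them in 3 of 3 H1047R libraries. GRB10 was above all of its vehicle libraries in both, but in control cells only narrowly (33.7 CPM or more against 33.3 or less). That control-cell change of GRB10 was not called (0.10 on the log2 scale, adjusted p = 0.615 in edgeR).

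Counts on the strand opposite to a gene were not used in the comparisons. For GRB10 they averaged 0.122% of the counts of both strands in control vehicle (0 to 2 counts per library), 0.906% in control insulin (7 to 11 counts), 0.610% in H1047R vehicle (3 to 8 counts) and 0.379% in H1047R insulin (13 to 22 counts). In H1047R cells the mean share was lower with insulin than with vehicle, but the libraries overlapped (0.31 to 0.414% and 0.243 to 0.925%). Means of the other members ran from 0% (GRB14) to 0.873% (SHC1) in control vehicle. In control insulin they ran from 0% (GRB14) to 0.885% (PTPN1). These shares rest on few counts, and no cause of their differences was tested.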

How the results depend on the processing

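Of 45 member results, 16 changed sign, or were gained or lost as calls, under at least 1 alternative. The sign changes were of values that passed no test and, apart from GRB14, were near 0. In H1047R against control cells with vehicle, INSR was 0.0001 with library totals, and IRS2 was 0.0058 with library totals, 0.0005 with DESeq2 size factors in edgeR, 0.0004 with at least 1 CPM in 3 libraries and 0.0059 without regard to strand. SHC1 in H1047R against control cells with insulin was 0.0122 with library totals, 0.0012 without a filter and 0.0064 with only the 2 groups compared. On leaving out 1 library at a time, the vehicle comparison ranged from -0.050 to 0.029 for INSR, -0.0094 to 0.029 for IGF2R, -0.063 to 0.10 for IRS1 and -0.031 to 0.029 for IRS2, and SHC1 from -0.051 to 0.0032 with insulin and -0.022 to 0.048 for the difference of the insulin effects. The log2 fold changes of GRB14 ranged from -0.75 to 0.63, -1.35 to 0.060, -0.22 to 1.47, -0.51 to 0.55 and -1.35 to 0.34 in the 5 contrasts, first the insulin effects in control and H1047R cells, then the vector effects with vehicle and with insulin, then the difference of the insulin effects.

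The count of members called for insulin in control cells ranged from 2 to 4 on leaving out 1 library. For H1047R in vehicle it ranged from 0 to 1, and was 1, GRB10, when genes of low count were kept (adjusted p = 5.11e-06 in edgeR) and at an FDR below 0.05 (1.21% of all tested genes). At an FDR below 0.05 the difference of the insulin effects passed for 4 members (21.3% of all tested genes). The IRS2 difference passed without a filter (0.45, adjusted p = 0.000183 in edgeR). The cause of these changes was not tested. DESeq2 called 4, 4, 0, 3 and 2 members in the 5 contrasts, as many as edgeR. Of all tested genes it called 440, 4294, 18, 5065 and 2068. Same-numbered libraries had correlations of their deviations between -0.058 and 0.0873, and differently numbered ones between -0.0862 and 0.0884. Between H1047R vehicle and H1047R insulin the same-numbered pairs were at 0.0873, 0.0424 and 0.0255, and the others between -0.0862 and 0.0597. No strong pairing by replicate number was seen, but such small values cannot exclude a weak one. With a replicate block, INSR in H1047R against control cells with insulin passed the threshold (log2 fold change -0.25, adjusted p = 0.000688 in edgeR), and 4 members were called there in place of 3. Of all tested genes 5336 were called there with the block and 5340 without it. The other members' calls were the same with the replicate block. Without H1047R vehicle replicate 1, an alternative chosen after the data were seen, 4, 20, 0, 24 and 13 of the other 68 genes were called. The share of all tested genes called in that setting is not given here, so these counts are not set against it. Depth limits GRB14, with 1 to 8 counts per library.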

Other observations

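The genes whose levels followed those of the receptors and IRS proteins most closely were taken from 9602 genes that averaged at least 10 CPM, by Pearson correlation of log2 CPM over the 12 libraries. The libraries of a group share their treatment, so these values describe how the 4 groups were ordered. For INSR they were ABTB1 (r = 0.987) and WIPI2, which acts in autophagosome formation (r = 0.974). For IGF1R they were the adhesion molecule NCAM1 (r = 0.988), which went from 233 CPM in control vehicle to 180 in control insulin and from 231 to 160 in H1047R cells, and the tight junction protein CLDN1 (r = 0.975). For IRS1 they were the MAP kinase phosphatase DUSP4 (r = 0.979), at 182, 125, 196 and 308 CPM in control cells with vehicle and with insulin and in H1047R cells with vehicle and with insulin, and the protease inhibitor SERPINE2 (r = 0.979). For IRS2 they were HIVEP2 (r = 0.954) and DOCK5 (r = 0.937).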
